A study of Mus musculus with 12 samples.

Results

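Messenger RNA of 40 cell cycle and mitosis genes was examined in mouse liver, out of 52636 genes in the deposited count files. The genes were chosen by name, as replication, cyclin, centromere and spindle genes with the cyclin-dependent kinase inhibitors Cdkn1b and Cdkn2c. The choice was made with earlier results of these data known, so a call among them is not independent of it. The files' Ensembl identifiers were matched to these symbols. All 40 were matched. The liver RNA came from C57BL/6 mice aged 12 weeks, in 4 groups of 3 libraries: p53 wt (wild type) or p53 ko (knockout), each on a normal diet or on HFD, the usual abbreviation of high-fat diet. The groups are called wt_normal, ko_normal, wt_HFD and ko_HFD. The sources used here do not give the p53 allele, the tissues in which it is lost, how long the diet lasted, or the hour and feeding state at which livers were taken. Nothing states that the 3 libraries of a group are 3 animals. A p-value here therefore measures only how far these libraries spread, which may be technical.

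The genes follow the order of the cell cycle. D-type cyclins with CDK4 and CDK6, then cyclin E with CDK2, phosphorylate the pocket proteins (RB and its relatives), which frees E2F factors to switch on genes of replication. Later in the cycle a second wave of genes, read through B-MYB and FOXM1, builds the mitotic spindle, the kinetochore and the checkpoint. p53 induces Cdkn1a, the CDK inhibitor p21, and p21 keeps the pocket proteins bound in the repressive DREAM complex at E2F and CHR (cell cycle genes homology region) elements of these promoters. NF-Y, an activator, binds CCAAT boxes in many of them. Most hepatocytes of the adult liver are out of the cycle, and many are polyploid.

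Promoter sequence is shown for the pair of genes that passed a test, Cenpm and Cdc25a, and for Cdk1 and Mki67, a classical G2/M gene and the standard proliferation marker. RefSeq windows (GRCm38.p6, from 250 bases before to 50 after a start site, 300 bases) were found for 33 of the 40 genes. Both strands were searched for 3 kinds of letters. CHR was searched as TTTGAA and also, in its other form, as TTTAAA, and the NF-Y box as CCAAT. E2F was searched in its classical form TTCGCGC and also as TTGGCGC or, in a further form, as TTCCCGC. Of the 250 upstream bases, those before the first exon that GENCODE places in the window are printed, 5′ to 3′ on the strand of the gene, with these matches in capitals. ATTGG is CCAAT on the other strand. Cenpm is chr15:82244411-82244586 (minus strand), Cdc25a is chr9:109875329-109875578 (plus), Cdk1 is chr10:69352939-69353162 (minus) and Mki67 is chr7:135716380-135716629 (minus).
Cenpm: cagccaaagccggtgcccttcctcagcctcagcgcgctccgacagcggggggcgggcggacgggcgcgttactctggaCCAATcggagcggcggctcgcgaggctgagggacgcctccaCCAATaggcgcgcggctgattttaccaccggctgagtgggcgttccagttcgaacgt
Cdc25a: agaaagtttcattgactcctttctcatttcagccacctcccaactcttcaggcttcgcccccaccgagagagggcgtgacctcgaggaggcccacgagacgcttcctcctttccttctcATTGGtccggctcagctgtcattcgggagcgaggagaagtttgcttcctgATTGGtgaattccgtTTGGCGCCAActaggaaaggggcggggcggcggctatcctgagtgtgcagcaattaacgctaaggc
Cdk1: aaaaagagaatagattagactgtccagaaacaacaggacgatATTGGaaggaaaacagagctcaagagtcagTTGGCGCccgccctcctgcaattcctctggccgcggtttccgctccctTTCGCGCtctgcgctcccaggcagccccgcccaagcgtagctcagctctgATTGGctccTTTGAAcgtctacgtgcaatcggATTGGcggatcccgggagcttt
Mki67: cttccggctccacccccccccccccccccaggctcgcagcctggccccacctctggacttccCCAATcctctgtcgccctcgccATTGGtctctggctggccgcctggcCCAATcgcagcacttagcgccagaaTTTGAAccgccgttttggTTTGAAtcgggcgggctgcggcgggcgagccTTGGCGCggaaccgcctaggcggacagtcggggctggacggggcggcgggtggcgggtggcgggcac
The Cenpm window held 2 CCAAT matches, which begin 172 and 131 bases before the start, and 1 E2F match at 70 bases, which falls among the 74 exonic bases not printed. It held no CHR letters. Other GENCODE models of Cenpm start further upstream, so that the printed stretch is intronic in them. Cdc25a held 2 CCAAT matches, at 131 and 81 bases, and overlapping E2F matches on both strands at 66 and 63 bases, with no CHR letters. Cdk1 held 2 CHR, 3 CCAAT and 2 E2F matches, 1 of the CHR matches at 15 bases and not printed. Mki67 held 2 CHR, 3 CCAAT and 1 E2F match. Over the 33 genes, CHR letters occurred in 18 (54.5%, against 30.6% of 27025 genes with a window). CCAAT occurred in 26 (78.8% against 41.1%) and E2F letters in 14 (42.4% against 9.2%), of which the classical form was in 4 (12.1% against 1.81%). Ccnb1, Cdk1, E2f8, Mcm5 and Mki67 held all 3 kinds, and the windows of Cdk4, Cdk6, E2f1 and Tyms held none. The windows of E2f1 and Cdk6 lay wholly inside the annotated gene, so the sequence before its outermost start was not searched. The same holds at least for Cdc6, Cdkn2c and Mcm7. A match of letters is a description and not a binding site.

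The 40 genes were rare in these livers. Together they took 2717 to 3676 read counts per library, which is 151 to 197 ppm of the library total. Cdk4, the D-cyclin kinase, had the most counts, 7162 over the 12 libraries. Per kilobase of exon, Cdk4 was also highest at a mean level of 10.3 CPM per kb (CPM is the normalised read count scaled to library size, here divided by exon length), followed by the replication clamp Pcna at 6.12 and the helicase subunit Mcm7 at 3.79. At the other end lay the kinetochore proteins Cenpf at 0.00683 and the checkpoint kinase Bub1 at 0.00693 CPM per kb.

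**Figure D1:**
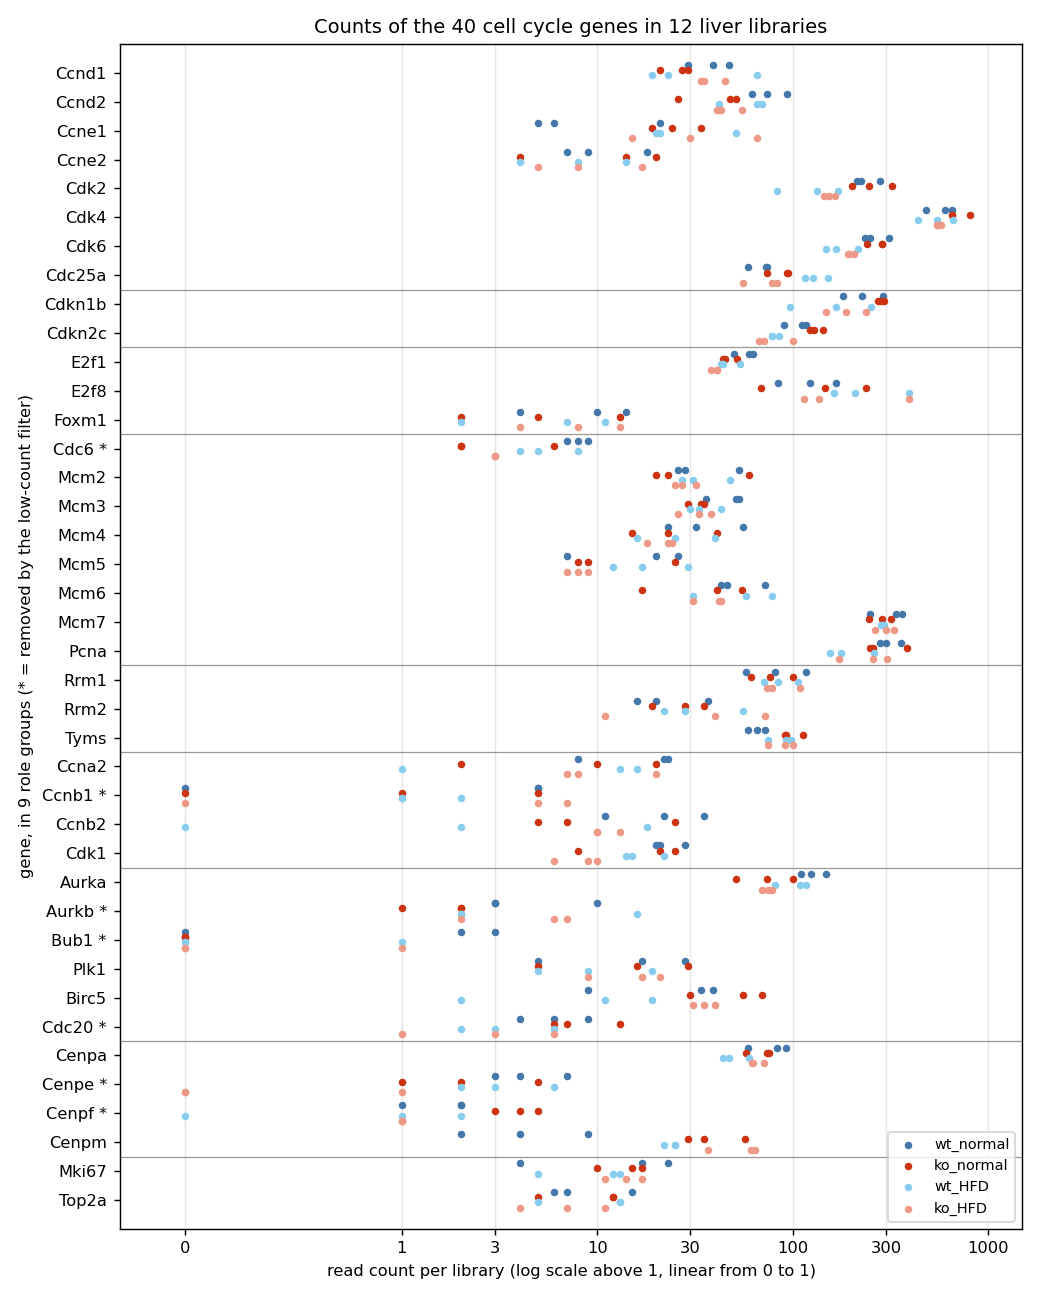
Read counts of the 40 genes (rows, in 9 role groups) in each of the 12 libraries (points, coloured by group), on a log axis above 1 count. Cdk4 reached 809 counts in a library, whereas the 7 genes marked with an asterisk had at most 16.

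A filter on low counts kept 33 of the 40 genes for testing, which had 93 (Foxm1) to 7162 counts in total. Of these, 12 had under 10 counts in at least 1 library. The filter removed 7 genes: Cdc6, which loads the replicative helicase, cyclin B1 (Ccnb1), Aurora B (Aurkb), Bub1, the anaphase activator Cdc20, and the kinetochore proteins Cenpe and Cenpf. They had 0 to 16 counts per library, and 7 to 66 in total per gene. Their counts summed to 93 in wt_normal, 67 in ko_normal, 67 in wt_HFD and 51 in ko_HFD, so the sum was highest in wt_normal. Counts of some genes are uncertain because exons of another gene overlap them and the use of strand is not stated. This holds for Ccnd1, Ccnd2, Ccne2, Cdk2, Cdk4, Cdk6, E2f8, Foxm1, Mcm7, Ccna2, Plk1, Cdc20 and Top2a, and Pcna, Tyms, Ccnb1 and Ccnb2 have annotated pseudogenes. Cenpm and Cdc25a have no such overlap. Pseudogenes were sought only by names formed from the gene symbol, and none so named was found for Cenpm or Cdc25a.

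Trp53, the gene of p53, had 265, 305 and 306 counts in wt_normal and 142, 166 and 432 in wt_HFD, against 28, 8 and 5 in ko_normal and 12, 13 and 12 in ko_HFD. Every ko library thus lay below every wt library. Cdkn1a (p21) had 519, 700 and 2245 counts in wt_normal, 14, 61 and 16 in ko_normal, 167, 213 and 1351 in wt_HFD, and 21, 43 and 66 in ko_HFD. All 6 ko libraries lay below all 6 wt libraries, and within wt replicate 3 of both diets was highest.

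Total counts per library ran from 15465187 to 20492567. Library wt_normal replicate 2 stood apart: its 6 skeletal muscle markers summed to 6678 CPM against at most 10.3 elsewhere, and its 7 B cell markers to 224 CPM against at most 30.4. All 7 hepatocyte markers were present in each library, with sums of 38381 to 52485 CPM in the wt libraries and 68825 to 76792 in the ko libraries. The 7 endothelial markers, also all present, summed to 212 to 253 CPM in wt_normal and 98.4 to 145 CPM in ko_normal. On HFD they summed to 113 to 188 CPM in wt and 85.9 to 148 CPM in ko. In bulk tissue, fewer cells of a type and less RNA per cell cannot be told apart. The part of cell composition in the results below was not tested.

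On the normal diet, ko livers were set against wt livers to see how cell cycle genes stand when p53 is knocked out and p21 RNA is low. Of the 33 tested genes 1 rose and none fell. The gene that rose was Cenpm (ENSMUSG00000068101, chromosome 15, 82233779 to 82244748 on GRCm38), a kinetochore protein of the complex that sits on the centromeric histone. It had 2, 4 and 9 counts in wt_normal and 29, 57 and 35 in ko_normal, that is 0.257 ± 0.18 against 2.14 ± 0.62 CPM (SD, n = 3). All 3 ko_normal libraries lay above all 3 wt_normal libraries. The log2 change was 3.01 (SE 0.47, 95% interval 1.99 to 4.02), an 8.03-fold rise with adjusted p = 0.029 in edgeR's test. Over all 14433 genes, 0.208% were called in this comparison (30 genes), with 0.145% called higher and 0.0624% lower. The call is narrow. Without the low-count filter it was kept (adjusted p = 0.0015 in edgeR's test), but that fit called far more of all genes, as the closing section gives. The call was lost in a fit of the 2 groups alone (adjusted p = 0.0541). It was also lost without wt_normal replicate 1 (adjusted p = 0.0521), wt_normal replicate 2 (0.112), ko_normal replicate 2 (0.082), ko_normal replicate 3 (0.0642) or ko_HFD replicate 2 (0.0531), with log2 changes of 2.71 to 3.08.

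The other 32 genes did not pass. The median log2 change of the 33 was -0.04, beside -0.02 over all genes tested, with 16 positive and 17 negative values. At an unadjusted p under 0.05 there were 4 of the 33, beside 2176 of 14433 genes. Of the 33, 7 had ko libraries that all lay above the wt libraries (Ccne1, Cdk4, Cdc25a, Cdkn1b, Cdkn2c, Tyms and Cenpm), and 11.4% of all genes did so. Another 4 had them all below (Ccnd2, E2f1, Mcm3 and Aurka), where the background was also 11.4%. These genes were listed after their values were seen.

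Among the genes of S phase entry, 6 of 8 had positive values and none was called. Cyclin D2 (Ccnd2, chromosome 6, 127125162 to 127152193), an activator of CDK4 and CDK6, had 74, 94 and 62 counts in wt_normal and 26, 48 and 51 in ko_normal. Its groups did not overlap, but the log2 change of -0.86 (SE 0.32) did not pass (adjusted p = 0.218). Cdk4 (chromosome 10, 127063534 to 127067920) had 29.6, 28.5 and 33.2 CPM in wt_normal and 37.7, 40.3 and 35.6 CPM in ko_normal. The summed level of the 8 genes was 66.3 to 69.1 CPM in wt_normal and 74.9 to 79.5 CPM in ko_normal. On HFD it was 65.9 to 69.6 CPM in wt and 65.3 to 67.5 CPM in ko, so the ko_normal libraries stood highest. Most of this difference on the normal diet was Cdk4. The mean sum was 67.9 CPM in wt_normal and 76.6 in ko_normal, and the mean of Cdk4 was 30.4 and 37.85 CPM. Of the inhibitors, Cdkn1b (p27; chromosome 6, 134920401 to 134925513) had 11.1, 13.8 and 11.6 CPM in wt_normal and 16.3, 14.6 and 14.9 in ko_normal. Cdkn2c, the other inhibitor of the list, had a mean of 5.59 CPM in wt_normal and 7.14 in ko_normal. Cdk4 and both inhibitors thus lay higher in ko_normal, none of them past the test.

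The genes of replication licensing and fork gave no rise. All 7 tested members of licensing and fork, the helicase subunits Mcm2 to Mcm7 and Pcna, had negative values of -0.49 to -0.04, and none was called. Mcm7 (chromosome 5, 138164583 to 138172422), the one with the most counts per length among the helicase subunits, had 250, 364 and 340 counts in wt_normal and 320, 246 and 288 in ko_normal, which overlap. Tyms, thymidylate synthase (chromosome 5, 30058202 to 30073617), had 72, 59 and 66 counts in wt_normal and 91, 113 and 93 in ko_normal, without overlap. Its log2 change was 0.59 (SE 0.23, adjusted p = 0.234).

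Among mitotic genes, Aurka (chromosome 2, 172356190 to 172370535), the Aurora A kinase of the spindle poles, lay lower in ko. It had 124, 110 and 149 counts in wt_normal and 51, 101 and 74 in ko_normal, a log2 change of -0.76 (SE 0.26, adjusted p = 0.197). Birc5 (chromosome 11, 117849251 to 117855743), survivin of the chromosomal passenger complex, had 9, 39 and 34 counts in wt_normal and 56, 30 and 70 in ko_normal. Its groups overlapped, and the fitted value was 1.03 on the log2 scale (SE 0.60, adjusted p = 0.441). Cenpa (chromosome 5, 30666777 to 30674830), the centromeric histone with which the complex of Cenpm associates, had 83, 93 and 59 counts in wt_normal and 76, 74 and 58 in ko_normal. Its log2 change was -0.15, beside 3.01 for Cenpm. Mki67 (chromosome 7, 135689784 to 135716361) had 4, 23 and 17 counts in wt_normal and 15, 17 and 10 in ko_normal. Its log2 change of 0.02 had a 95% interval of -1.20 to 1.23, so the fit cannot exclude a change within those bounds.

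On HFD, ko against wt gave no call among the 33 genes, and 0.0693% of all genes were called (10 genes, 0.0416% higher and 0.0277% lower). DESeq2 called 95 genes, none of the 33 among them. Cenpm had 22, 25 and 25 counts in wt_HFD and 61, 64 and 37 in ko_HFD, again without overlap. Its log2 change was 1.13 (SE 0.40, interval 0.26 to 2.01), with unadjusted p = 0.0148 and adjusted p = 0.458 in edgeR's test. Cdc25a (ENSMUSG00000032477, chromosome 9, 109875579 to 109893895), the phosphatase that activates CDK2 at the start of S phase, had 127, 152 and 115 counts in wt_HFD and 78, 83 and 56 in ko_HFD. All ko_HFD libraries lay below the wt_HFD libraries, with a log2 change of -0.90 (SE 0.22, adjusted p = 0.307). Birc5 had 19, 11 and 2 counts in wt_HFD and 35, 40 and 31 in ko_HFD, which gave a log2 change of 1.68 (SE 0.64, adjusted p = 0.499). Cdk1 (chromosome 10, 69335146 to 69352938), the kinase of mitotic entry, had 15, 22 and 14 counts in wt_HFD and 6, 9 and 10 in ko_HFD, which gave -1.05 on the log2 scale (adjusted p = 0.575).

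Of the 33 genes, 3 lay without overlap higher in ko_HFD (Birc5, Cenpa and Cenpm; 6.7% of all genes did) and 4 lower (Cdc25a, E2f1, Mcm5 and Cdk1; 6.85%). The same groups were apart in markers of lymphocytes. The 7 T and NK cell markers summed to 3.67 to 4.14 CPM in wt_HFD (5 to 7 of them detected) and 7.52 to 9.88 CPM in ko_HFD (7 detected), and the 7 B cell markers, all detected, to 10.9 to 15.6 and 18.4 to 30.4 CPM. Their part in these values was not tested. The median log2 change of the 33 was 0.02 beside -0.01 over all genes, with 18 positive and 15 negative values. With an unadjusted p under 0.05 there were 4 of the 33 and 1278 of all genes.

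**Figure D2:**
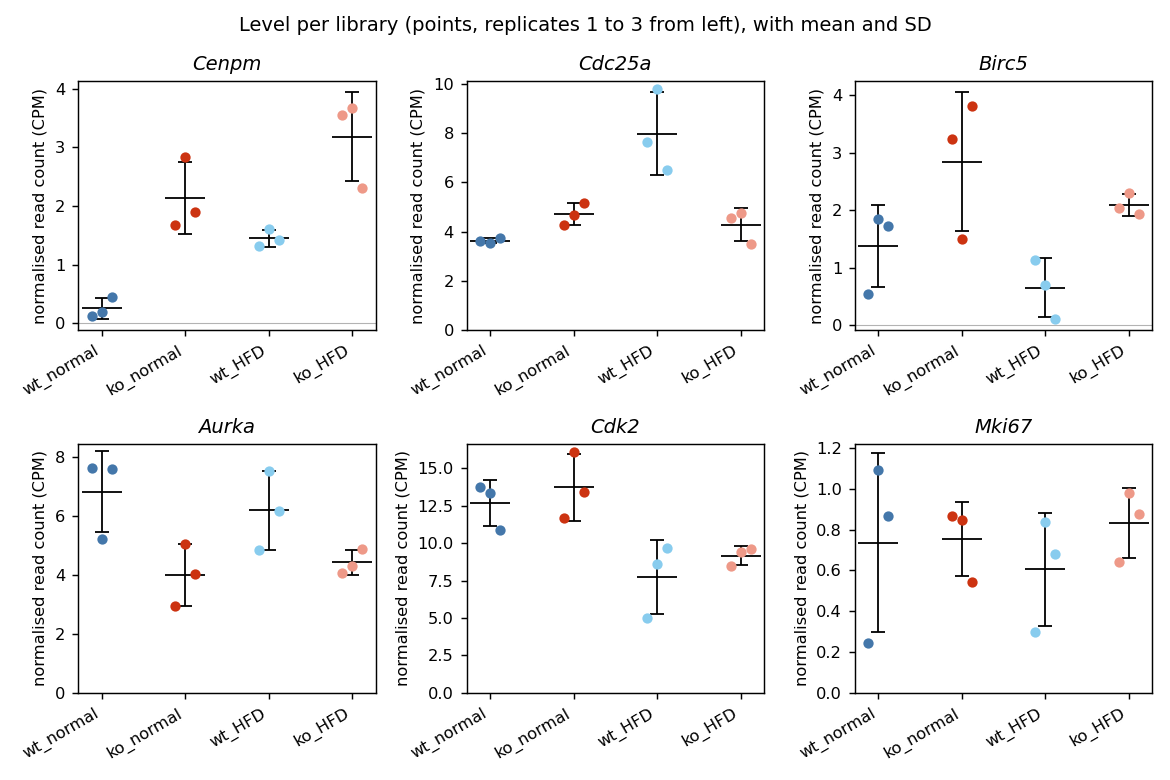
Normalised read count (CPM, linear axis) of 6 genes in each library (points), with the mean (bar) and SD (whiskers) of the 3 libraries of a group. Cenpm was lowest in wt_normal (0.257 ± 0.18) and highest in ko_HFD (3.18 ± 0.75), and Cdc25a was highest in wt_HFD (7.97 ± 1.7).

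With both diets averaged, ko against wt used all 12 libraries. Cenpm was the 1 gene of the 33 called, 4.20-fold higher in ko at a log2 change of 2.07 (SE 0.31, interval 1.40 to 2.74; adjusted p = 0.00852 in edgeR's test). Here 1.16% of all genes were called, with 0.79% higher and 0.374% lower. The exact two-sided permutation test of the level, with genotype permuted within diet, gave p = 0.005 for Cenpm, the smallest the design allows. This p is unadjusted and follows from the lack of overlap within each diet, so it is not separate support. The call was kept when each of the 12 libraries was left out in turn. Cenpm was also the 1 gene of the 33 whose 6 ko libraries all lay above all 6 wt libraries, as for 0.901% of all genes. Aurka, at 6.81 ± 1.4 and 6.19 ± 1.3 CPM in wt_normal and wt_HFD against 4 ± 1 and 4.42 ± 0.41 in the ko groups, had a log2 change of -0.62 (SE 0.19, adjusted p = 0.112). Birc5 had 1.38 ± 0.72 and 0.654 ± 0.52 CPM in the wt groups against 2.85 ± 1.2 and 2.09 ± 0.18 in the ko groups, a log2 change of 1.35 (SE 0.44, adjusted p = 0.131). Neither passed in edgeR's test. In the Wald test of DESeq2 both did, with adjusted p = 0.0441 for Aurka and 0.0345 for Birc5. DESeq2 also called far more of all genes in this comparison than edgeR did, as the last paragraph gives.

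E2f1, the activator E2F of the list, was named after its values were seen. It had 3.04 ± 0.042 and 2.82 ± 0.21 CPM in the wt groups against 2.53 ± 0.073 and 2.37 ± 0.017 in the ko groups. All 6 ko libraries lay below all 6 wt libraries, as for 0.845% of all genes. The log2 change was small at -0.26 (SE 0.17, adjusted p = 0.425). Over the 33 genes the median was -0.03, beside -0.01 for all genes, with 16 positive and 17 negative values. The summed level of the 8 licensing and fork genes was 43.5 ± 3.2 CPM in wt_normal, 39.2 ± 2.9 in ko_normal, 39.9 ± 5.2 in wt_HFD and 40.1 ± 3.5 in ko_HFD, with overlapping libraries in all 4 groups.

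In wt livers, HFD was set against the normal diet to see how the cell cycle genes respond with p53 present. Of the 33 genes 2 rose, Cenpm and Cdc25a, and none fell, while 0.693% of all genes were called (0.43% higher and 0.263% lower). Cenpm went from 2, 4 and 9 counts to 22, 25 and 25, a 5.43-fold rise (log2 change 2.44, SE 0.47, interval 1.42 to 3.46; adjusted p = 0.0381 in edgeR's test). Cdc25a went from 59, 74 and 73 counts to 127, 152 and 115, that is from 3.62 ± 0.1 to 7.97 ± 1.7 CPM (SD, n = 3). This was a 2.20-fold rise (log2 change 1.14, SE 0.22, interval 0.65 to 1.62; adjusted p = 0.0442). For both genes the wt_HFD libraries all lay above the wt_normal libraries.

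Both calls lay close to the threshold. Both were kept without the low-count filter, in a fit that also called far more of all genes. There edgeR's test gave adjusted p = 0.00863 for Cenpm and 0.0275 for Cdc25a. The fit of the 2 groups alone gave adjusted p = 0.133 for Cenpm and 0.116 for Cdc25a. Without wt_normal replicate 1 the values were 0.0762 for Cenpm and 0.0788 for Cdc25a, without wt_normal replicate 2 they were 0.145 and 0.144, and without wt_normal replicate 3 they were 0.0819 and 0.114. Without wt_HFD replicate 1 they were 0.0713 and 0.085, without wt_HFD replicate 2 they were 0.077 and 0.0954, without ko_normal replicate 3 they were 0.0671 and 0.0751, and without ko_HFD replicate 2 both were 0.0592. Cenpm alone was lost without wt_HFD replicate 3 (0.0513), and Cdc25a alone without ko_normal replicate 2 (0.062) and with upper-quartile scaling (0.0513). Both were also lost with the replicate number as a block, as given in the closing section.

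The 8 genes of S phase entry split on HFD in wt into 4 positive and 4 negative values, and their summed level was 67.9 ± 1.4 CPM in wt_normal and 67.5 ± 1.9 in wt_HFD. Cyclin E1 (Ccne1, named after its values were seen), the partner of CDK2, had 6, 21 and 5 counts in wt_normal and 21, 51 and 20 in wt_HFD. Only in CPM did its groups not overlap, and the fitted value was 1.77 on the log2 scale (SE 0.65, adjusted p = 0.201). E2f8 (chromosome 7, 48866429 to 48881596), an atypical E2F that represses E2F targets, had 123, 84 and 166 counts in wt_normal, 208, 396 and 162 in wt_HFD, 69, 147 and 237 in ko_normal and 137, 114 and 392 in ko_HFD. In wt its log2 change was 1.24 (SE 0.56, adjusted p = 0.287), and 1 library of each HFD group stood far above the other 2. As for Ccne1, its wt groups were apart in CPM only (at most 8.47 against at least 9.17), and the counts overlapped. Tyms had 4.42, 2.8 and 3.37 CPM in wt_normal and 5.88, 4.83 and 5.26 in wt_HFD, which did not pass (log2 change 0.60, adjusted p = 0.211).

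Cdk2 (chromosome 10, 128697939 to 128705031), the kinase bound by cyclins E and A, lay lower on HFD. It had 224, 281 and 214 counts in wt_normal and 83, 134 and 171 in wt_HFD, a log2 change of -0.71 (SE 0.24, adjusted p = 0.168). Its partner cyclin E1 and its activator Cdc25a thus lay in the opposite direction in the same libraries. In all, 5 of the 33 genes lay higher without overlap on HFD in wt (Ccne1, Cdc25a, E2f8, Tyms and Cenpm; 11.2% of all genes) and 3 lower (Cdk2, Cdk6 and Pcna; 10.7%). The median log2 change of the 33 was -0.18, beside -0.03 over all genes, with 14 positive and 19 negative values. It turned to 0.08 without wt_normal replicate 2 and to 0.02 without wt_HFD replicate 1, each with 18 positive values. The medians of the other comparisons, which lay nearer to 0, also changed sign when single libraries were left out. All 3 tested genes of mitotic entry (Ccna2, Ccnb2 and Cdk1) had negative values, -1.60 to -0.23, none of them called. At an unadjusted p under 0.05 there were 7 of the 33 and 2453 of all genes.

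In ko livers the diet gave no call among the 33 genes, and 0% of all genes were called by edgeR. At an unadjusted p under 0.05 there were 2 of the 33 and 812 of all genes, and DESeq2 called 37 genes, none of the 33 among them. Cenpm had 29, 57 and 35 counts in ko_normal and 61, 64 and 37 in ko_HFD (log2 change 0.57, SE 0.39, adjusted p = 0.9), with overlapping groups. Cdc25a had 74, 94 and 95 counts in ko_normal and 78, 83 and 56 in ko_HFD (log2 change -0.14, adjusted p = 0.957). Cdkn2c (chromosome 4, 109660876 to 109667189), an INK4 inhibitor of CDK4 and CDK6, had 143, 123 and 129 counts in ko_normal and 100, 67 and 71 in ko_HFD. It lay lower without overlap, by a fitted value of -0.60 on the log2 scale (SE 0.22, adjusted p = 0.831). Cdk2 did so too, with 202, 323 and 247 counts against 145, 164 and 154 (log2 change -0.58). Cdk1 had 25, 21 and 8 counts in ko_normal and 6, 9 and 10 in ko_HFD, which overlap (log2 change -0.96, adjusted p = 0.868). One gene lay higher without overlap (Ccnd1; 5.45% of all genes) and 4 lower (Cdk2, Cdkn1b, Cdkn2c and E2f1; 5.96%). The median of the 33 was -0.01 beside -0.00 for all genes.

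**Figure D3:**
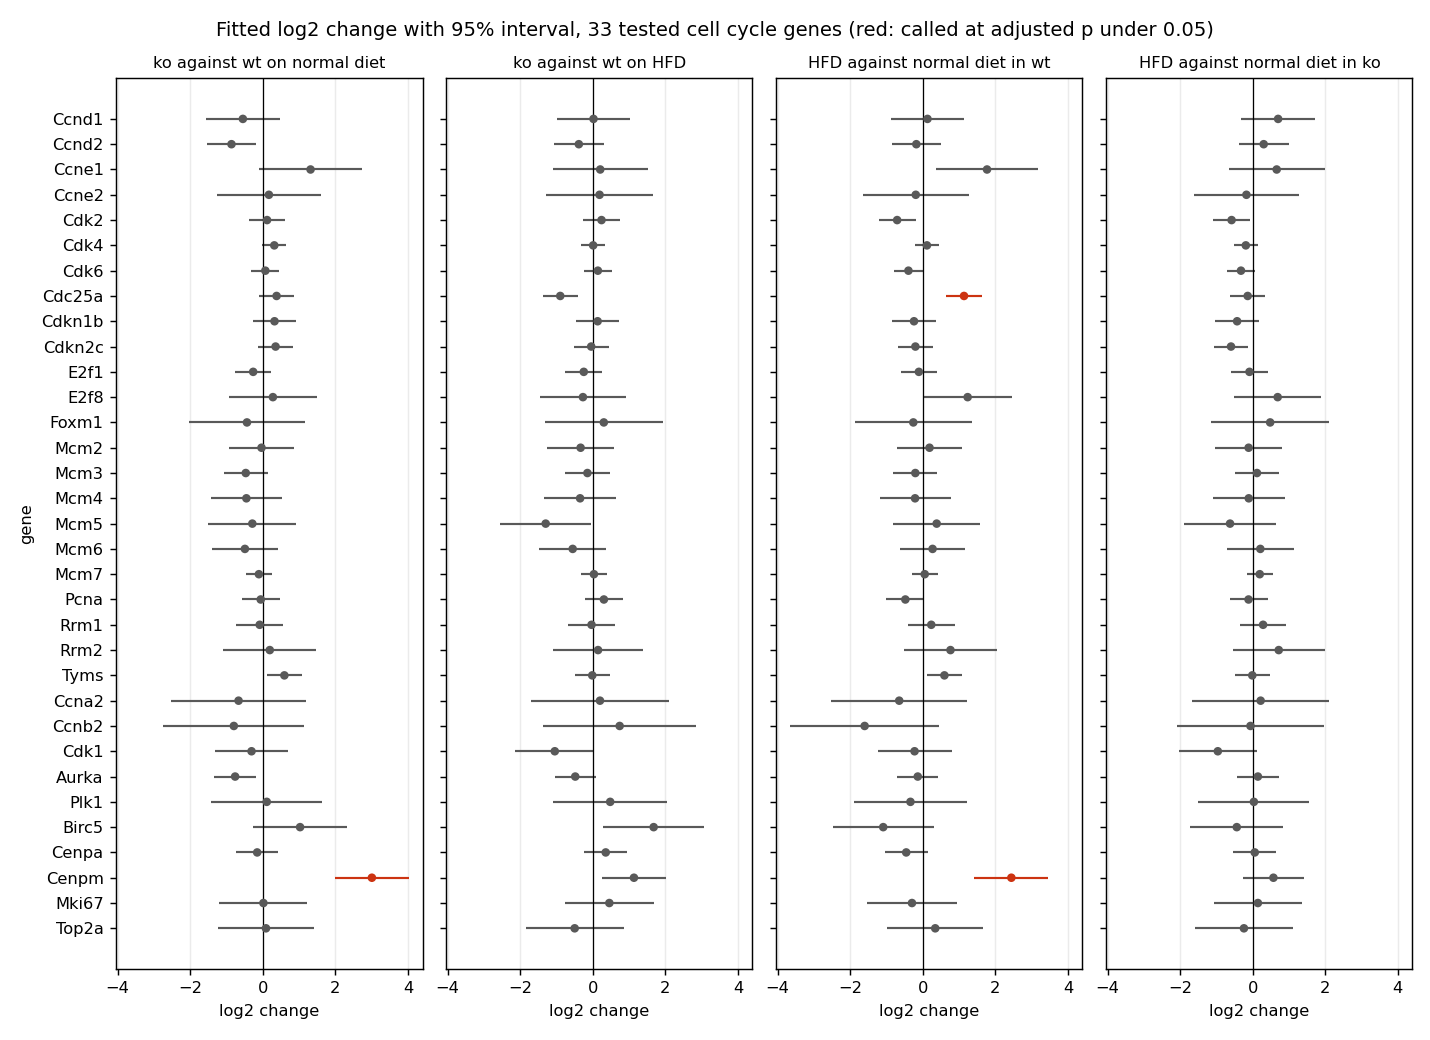
Fitted log2 change (points) with its 95% interval (lines) for the 33 tested genes in 4 comparisons, on a shared log2 axis, with called genes in red. The red points are Cenpm in ko against wt on normal diet (3.01), and Cenpm (2.44) and Cdc25a (1.14) in HFD against normal diet in wt.

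With both genotypes averaged, HFD against normal diet called Cenpm alone among the 33, 2.84-fold higher (log2 change 1.5, SE 0.31; adjusted p = 0.0413 in edgeR's test). Of all genes 1.04% were called, with 0.582% higher and 0.457% lower. The exact two-sided permutation test within genotype gave p = 0.01. Without the low-count filter, where more of all genes were called, the call was kept (adjusted p = 0.0195 in edgeR's test). With the replicate number as a block it was lost. The call was lost without wt_normal replicate 1 (adjusted p = 0.079) or 2 (0.0946), ko_normal replicate 1 (0.0814), 2 (0.0574) or 3 (0.108), wt_HFD replicate 1 (0.0659) or 2 (0.071), and ko_HFD replicate 1 (0.086) or 2 (0.0789). Cdk2 was the 1 gene of the 33 whose 6 HFD libraries all lay below all 6 normal diet libraries, as for 0.686% of all genes, and none of the 33 lay wholly above them (0.734% of all genes). It had 12.7 ± 1.5 and 13.7 ± 2.2 CPM on the normal diet in wt and ko against 7.76 ± 2.5 and 9.17 ± 0.63 on HFD. Its log2 change was -0.65 (SE 0.17, interval -1.01 to -0.28, adjusted p = 0.0859). The exact permutation p was 0.005, which is unadjusted and follows from this lack of overlap. Cdk2 passed without wt_HFD replicate 3 (adjusted p = 0.0475) and in the Wald test of DESeq2 (0.0169). Here too DESeq2 called far more of all genes than edgeR did.

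Whether the ko effect differed between the diets was tested by the interaction. No gene of the 33 was called, 0% of all genes were called, and at an unadjusted p under 0.05 there were 2 of the 33 and 725 of all genes. DESeq2 called 19 genes, none of the 33 among them. The pair with the smallest p were again Cdc25a and Cenpm. For Cdc25a the ko effect on HFD was lower than that on the normal diet by 1.28 on the log2 scale (value -1.28, SE 0.32, interval -1.96 to -0.59; unadjusted p = 0.00152, adjusted p = 0.772). For Cenpm the value was -1.87 (SE 0.61, interval -3.19 to -0.55; unadjusted p = 0.00915, adjusted p = 0.913). Tyms followed at -0.61 (SE 0.32, adjusted p = 0.981). Beside these, Mki67 had 0.44 (interval -1.28 to 2.16), so the fit cannot exclude a difference within those bounds.

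Across the 4 groups the mean level of Cenpm was lowest in wt_normal (0.257 ± 0.18 CPM), then came wt_HFD (1.45 ± 0.15), ko_normal (2.14 ± 0.62) and ko_HFD (3.18 ± 0.75). All libraries of wt_normal lay below all others. Those of wt_HFD (1.32, 1.61 and 1.41) lay below those of ko_normal (1.68, 2.84 and 1.9), whereas ko_normal and ko_HFD (3.56, 3.68 and 2.32) overlapped. Clock genes, which were picked after their values were seen, also differed between these groups. Dbp, a clock output factor, had 2.15, 13.5 and 2.04 CPM in wt_normal, 190, 97.2 and 107 in ko_normal, 83.4, 59.0 and 6.51 in wt_HFD, and 74.4, 124 and 112 in ko_HFD. Arntl, which peaks in the opposite phase, had 11.5, 8.08 and 17.0 CPM in wt_normal and 1.04, 3.19 and 2.34 in ko_normal. It had 2.94, 2.25 and 7.07 CPM in wt_HFD and 1.05, 2.07 and 1.75 in ko_HFD. Wee1, a mitotic brake kinase under clock control, followed Dbp in wt_normal and ko_normal, with 0.799, 1.90 and 0.918 CPM against 3.35, 3.24 and 2.34 CPM.

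With the log2 difference of Dbp and Arntl as a covariate, none of the 33 genes was called in any comparison. The log2 change of Cenpm was then 3.61 for ko on normal diet (adjusted p = 0.116), 2.48 for ko averaged over diets (0.122), 2.84 for HFD in wt (0.0756) and 1.71 for HFD averaged (0.0796), each larger than without the covariate. The change of Cdc25a on HFD in wt was 0.96 (adjusted p = 0.243). Group and clock values cannot be told apart where they move together.

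By role group, 1 of the 9 groups held the called gene in ko against wt, centromere and kinetochore. Its summed level of 4 genes was 4.77 ± 0.83 CPM in wt_normal, 6.25 ± 0.8 in ko_normal, 4.76 ± 0.4 in wt_HFD and 7.16 ± 0.24 in ko_HFD. On the normal diet Cenpm alone went from 0.257 to 2.14 CPM between wt and ko, whereas Cenpa went from 4.18 ± 1.1 to 3.75 ± 0.62 and Cenpe from 0.244 to 0.149. Mitotic entry summed to 3.52 ± 1.1, 2.37 ± 1.5, 2.1 ± 0.87 and 2.08 ± 0.26 CPM in the same order. Its libraries overlapped between groups, except those of wt_normal (2.29 to 4.33 CPM) and ko_HFD (1.78 to 2.27 CPM). Mki67 and Top2a, which relaxes DNA at mitosis, together held 1.22 ± 0.54, 1.27 ± 0.4, 1.23 ± 0.56 and 1.27 ± 0.36 CPM, with no order among the groups. The E2F factors with Foxm1 summed to 10.2 ± 2.3 and 10.9 ± 4.3 CPM on the normal diet and to 18.9 ± 8.6 and 15.9 ± 10 on HFD, where E2f8 made up most of the sum.

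**Figure D4:**
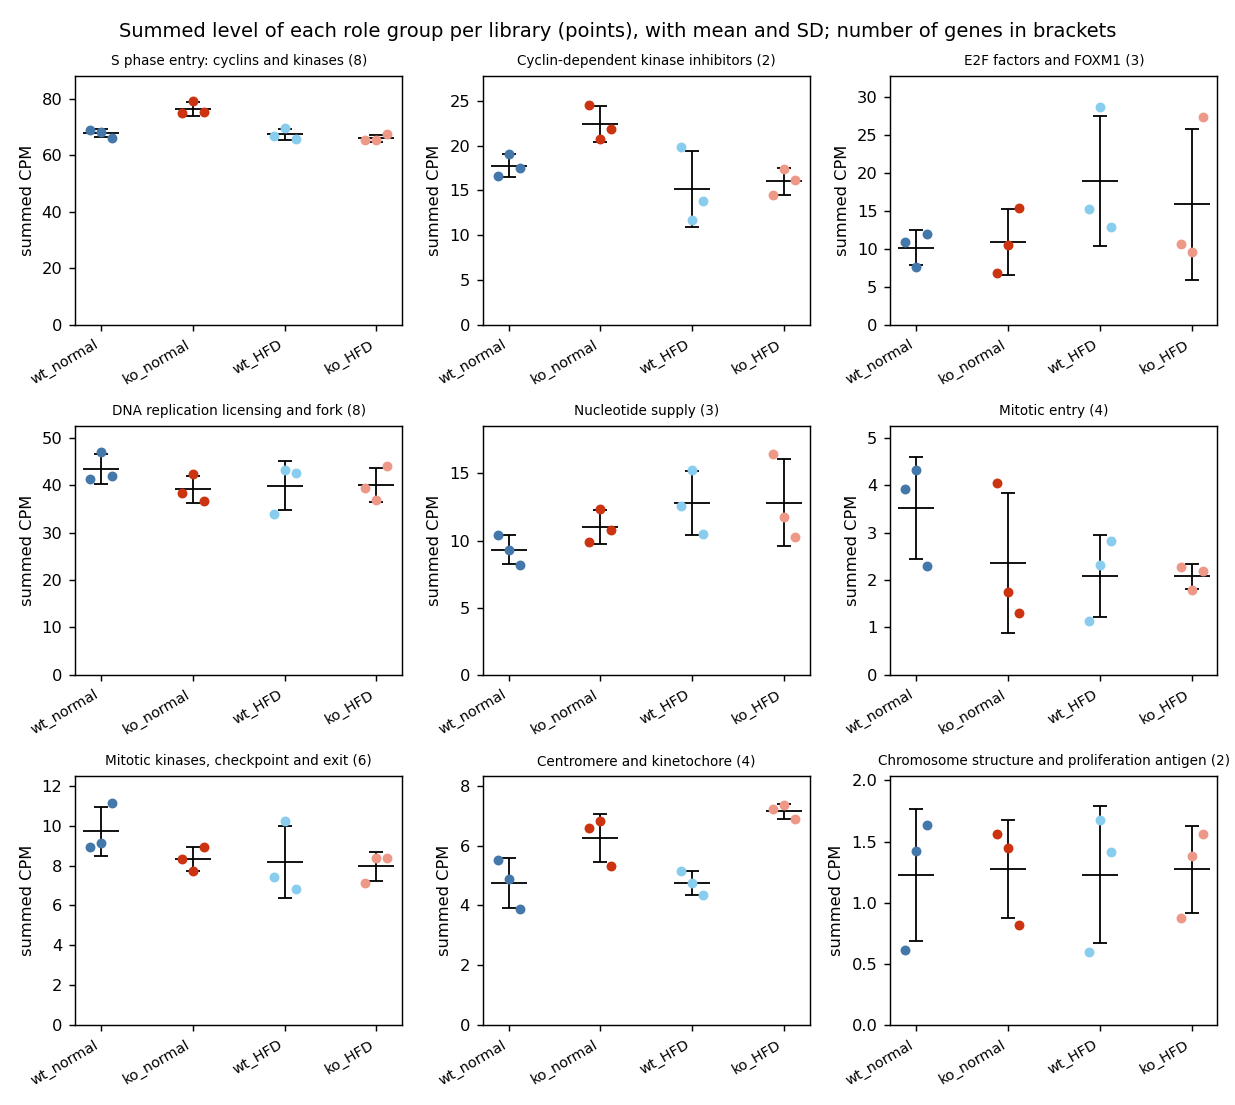
Summed normalised read count (CPM, axes from 0) of the 9 role groups in each library (points), with mean (bar) and SD (whiskers) of 3 libraries and the number of genes in brackets. The centromere sum was 7.16 ± 0.24 in ko_HFD and 4.76 ± 0.4 in wt_HFD, of which Cenpm made up 3.18 ± 0.75 and 1.45 ± 0.15, and the 2 genes of the last panel lay between 1.22 and 1.27 on average in all groups.

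The wider pathway was followed in 143 other genes in 6 lists, of which 97 were tested. Of the 6 genes of the p53 and p21 axis, Trp53 fell in ko on both diets (log2 change -4.35 and -4.30), and Cdkn1a fell on the normal diet (-5.22, SE 0.92, adjusted p = 0.0471) and with diets averaged (-4.45, adjusted p = 0.00666). On HFD Cdkn1a had -3.68 (SE 0.86, adjusted p = 0.267). Gadd45a, a growth arrest and stress gene, rose on HFD in wt (log2 change 3.80, adjusted p = 0.0264) and with genotypes averaged (2.88, adjusted p = 0.0126). No gene of the other 5 lists was called in any of the 7 comparisons. These were 13 tested genes of the DREAM complex and pocket proteins, 4 other kinase inhibitors, 33 other replication genes, 27 other mitotic genes and 14 other centromere proteins.

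The smallest p-values in these lists belonged to few genes. In ko on the normal diet they were the helicase partner Gins1 (log2 change 1.03, adjusted p = 0.137) and the kinetochore protein Cenpx (0.58, adjusted p = 0.126). With diets averaged, Hjurp, the chaperone that deposits the centromeric histone, had 0.93 (adjusted p = 0.0703), and its counts were 1626, 2262 and 1245 in wt_normal against 3252, 2789 and 3602 in ko_normal, and 1566, 671 and 1514 in wt_HFD against 1780, 3462 and 1819 in ko_HFD. The ko libraries lay above the wt libraries within each diet, and on HFD 1 ko library stood far above the other 2. On HFD in wt the clamp loader subunit Rfc2 had 0.74 (adjusted p = 0.0864), with 399, 496 and 491 counts in wt_normal and 759, 601 and 669 in wt_HFD. The licensing factor Cdt1 had -1.06 for ko on HFD (adjusted p = 0.419) and -0.97 for HFD in ko (adjusted p = 0.774). The median log2 change of the 97 genes was -0.02 for ko on the normal diet and -0.12 for HFD in wt, beside -0.02 and -0.03 for all genes. For ko on the normal diet, 21 of the 33 other replication genes had positive and 12 negative values. Of the 27 other mitotic genes, 8 had positive and 19 negative values. The 39 other replication genes summed to 270 to 293 CPM in wt_normal and 315 to 367 CPM in ko_normal. On HFD they summed to 315 to 368 CPM in wt and 314 to 365 CPM in ko.

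The median SE of the 33 genes was 0.42 on the log2 scale for ko against wt on the normal diet, and 12 of the 33 intervals lay wholly within a log2 change of -1 to 1. For ko averaged over diets 16 did, for HFD averaged over genotypes 19, and for the interaction 6. The other intervals reached beyond a 2-fold change in at least 1 direction.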

How the data were processed

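Liver RNA was sequenced in 12 libraries, 3 in each of 4 groups of genotype and diet. The authors deposited whole-number read counts per Ensembl gene, 1 column per library. CASAVA 1.8, Bowtie 0.12.2 and the builds mm8 and mm9 are named per the submitters' processing notes; the counting tool, the annotation and the strand setting are not given in the sources read here. The labels gave the groups and the replicate numbers.

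Counts were used as deposited and without rounding. Genes with low counts were removed with filterByExpr, which left 14433, and library totals were scaled by TMM. edgeR 4.0.16 (R 4.3.3) fitted all libraries at once with 1 mean per group, giving 8 residual and 4.66 prior degrees of freedom. Each of 7 comparisons used its two-sided quasi-likelihood F-test, and p-values were adjusted by Benjamini-Hochberg over all tested genes; a gene was called under 0.05. All p-values given for single genes are from this test unless another is named. CPM are counts scaled to the TMM-adjusted totals. Lengths and positions are from GENCODE M21 on GRCm38. The fit was tested on simulated data.

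The genes, role groups and lists were chosen with earlier results of these data known. Named were the genes called in any comparison, the 3 with the smallest p in each, the one with the most counts in each role group, and the called or smallest-p genes of the pathway lists. Alternatives were other filters and scalings, DESeq2 1.42.0, fits of the compared groups alone, a block for the replicate number, leaving out each library, and a clock covariate added after the data were seen.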

Additional observations from a re-analysis of the deposited data

Results flagged for a closer look

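The fitted ko effects on Cdc25a had opposite signs on the 2 diets, and neither of them was called. The 3 ko_normal libraries of Cdc25a (4.28, 4.68 and 5.17 CPM) all lay above the wt_normal libraries (3.62, 3.52 and 3.72 CPM). Its 3 ko_HFD libraries (4.55, 4.77 and 3.5 CPM) all lay below the wt_HFD libraries (7.62, 9.79 and 6.51 CPM). Of all genes, 11.4% lay higher in ko without overlap on the normal diet, and 6.85% lower on HFD. The difference of the 2 effects was -1.28 on the log2 scale (SE 0.32), and edgeR's interaction test gave an adjusted p = 0.772 over all genes, which did not pass.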

How the results depend on the processing

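The number of the 33 genes called for ko against wt on HFD, for HFD in ko and for the interaction was 0 under every alternative run. For ko on normal diet (1 called), 0 were called with the 2 groups alone and with the clock covariate, and 0 to 1 with each library left out. For HFD in wt (2 called), 0 were called with the 2 groups alone and with the clock covariate, 1 (Cenpm) with upper-quartile scaling, and 0 to 2 with each library left out. For ko averaged over diets (1 called), DESeq2 called 3 (Birc5, Aurka and Cenpm) and the covariate fit 0. For HFD averaged over genotypes (1 called), DESeq2 called 2 (Cdk2 and Cenpm), the covariate fit 0, and leaving out each library 0 to 2. In both of these averaged comparisons DESeq2 also called far more of all genes than edgeR did, as the last paragraph gives. The log2 change of Birc5 for ko averaged over diets turned to -0.24 with the covariate, and the cause was not tested.

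With the replicate number as a block, 0 genes of the 33 were called for HFD in wt (Cenpm 2.45, adjusted p = 0.0574; Cdc25a 1.12, adjusted p = 0.0601) and 0 for HFD averaged over genotypes (Cenpm 1.52, adjusted p = 0.0596 in edgeR). The counts of the other comparisons did not change. Whether the numbers pair the samples is not stated. Correlations of same-numbered libraries ran from -0.21 to 0.33, and 4 of 18 were over 0.1. A library correlated best with its own number in 14 of 36 cases. With 3 libraries per group these values cannot decide whether the samples are paired.

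Over all genes the counts called varied more. edgeR called 30, 10, 100 and 0 genes in ko on normal diet, ko on HFD, HFD in wt and HFD in ko, and DESeq2 called 529, 95, 660 and 37. Without the low-count filter they were 648, 51, 696 and 21, and with the 2 groups alone 94, 6, 30 and 2. For ko averaged, HFD averaged and the interaction, edgeR called 168, 150 and 0, DESeq2 860, 807 and 19, the fit without the filter 644, 489 and 13, and the covariate fit 37, 85 and 8. The covariate fit called 73, 3, 157 and 0 in the first 4. Depth left 7 of the 40 genes with too few counts to be tested.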
